A study of Mus musculus with 16 samples.

Results

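Interferon-stimulated genes are the genes that cells switch on when interferon, a cytokine of antiviral defence, reaches its receptors. The set described here was a list of 45 gene symbols chosen by name, at a time when earlier results of these data were known, so the share of members that changed is a description and not independent evidence. All 45 had a row in the table of gene counts, which held 23284 symbols, and 44 of them had enough counts to be tested, among 15426 genes in all. Oas3 was the member with too few counts. The samples were lumbar spinal cords of mice aged 150 days, taken as whole tissue and sequenced as poly-A RNA, with 4 libraries in each of 4 groups. The group cWT carried Atg7 cWT, the group cKO carried Atg7 cKO, and the groups cWT_SOD1 and cKO_SOD1 carried the same genotypes together with SOD1G93A, a human SOD1 gene with a mutation that gives mice a disease resembling amyotrophic lateral sclerosis. Atg7 encodes an enzyme needed to form autophagosomes, and cKO is read here as conditional knockout. The series title places the loss of autophagy in motor neurons. No source used here gives the strain or the driver of the deletion. The study's design text calls the 4 animals of a group biological replicates.

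When an interferon binds its receptor, the receptor's JAK kinases phosphorylate STAT transcription factors. Type I interferon sends a complex that holds STAT2 and IRF9 to the nucleus, where it binds the interferon-stimulated response element (ISRE) in promoters, while interferon gamma acts largely through another element, the gamma-activated site (GAS). The products detect foreign nucleic acid, block steps of viral replication, tag proteins with ISG15 and feed peptides to MHC class I, and in the central nervous system microglia and astrocytes are among the cells that express them.

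Levels are given as CPM, which are counts per fixed library size after TMM scaling, for replicates 1 to 4 in that order. CPM does not correct for gene length, so it serves here to compare libraries for 1 gene at a time. Differences are log2 fold changes from the edgeR quasi-likelihood test with an approximate standard error (SE). A gene counts as changed where its Benjamini-Hochberg adjusted p, taken over all 15426 genes, was under 0.05, and every adjusted p below comes from that test. Library totals ran from 14989026 to 20892530 counts, and each group held 2 females and 2 males by Xist and Y-linked counts. Counts of Atg7 over the whole cord cannot check a deletion limited to some cells, and the mouse Sod1 row does not measure the human transgene. The library cKO_SOD1 replicate 3 stood above the rest of its group for most members, and counts of called members without it are given further on. How reads shared by near-identical family members, such as Ifit, Oas, Gbp and Slfn genes, were assigned is not stated in the labels or headers, and values of single members of these families are uncertain for that reason.

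With Atg7 cWT, the transgene raised 42 of the 44 tested members and lowered 2, Adar and Cmpk2. The median member stood 3.30-fold higher in cWT_SOD1 than in cWT (log2 fold change 1.72, range −0.65 to 3.62), and the median over all tested genes was 0.01. In this comparison 66.3% of all genes were called, 33.2% higher and 33.1% lower. The 4 cWT_SOD1 libraries lay above all 4 cWT libraries for 42 of the 45 members, which was so for 27.6% of all tested genes. Of the 42 that rose, 37 rose more than 2-fold and 15 more than 4-fold. In whole tissue, a change in the number of cells of a type and a change in RNA per cell cannot be told apart.

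In cKO mice the same transgene raised 29 of the 44 members and lowered 0, against 7.28% of all genes called, 4.8% higher and 2.48% lower. The median member was 1.72-fold higher in cKO_SOD1 than in cKO, at a log2 fold change of 0.78 against 0.00 over all genes. Each of the 42 members that rose in cWT had a smaller log2 fold change in cKO. The share of all risen genes with a smaller effect in cKO was not computed. Calls over all genes also dropped, from 66.3% in cWT to 7.28% in cKO. A smaller effect in cKO is therefore not shown to be particular to the members. The interaction, which is the transgene effect in cKO minus that in cWT, was called lower for 31 members, higher for Adar and Cmpk2, and not called for 11. Of all genes, 45% were called in the interaction, 21.8% lower and 23.2% higher. With both groups carrying the transgene, 38 members were lower in cKO_SOD1 than in cWT_SOD1, 2 were higher and 4 were not called, against 58.2% of all genes called, 29.1% in each direction. The median of that difference was −0.89, a 1.85-fold lower level. This last comparison shares the cWT_SOD1 libraries with the transgene effect in cWT, so the calls of both are not independent. The heat map of members by library shows the 4 groups. Averaged over members, the cWT and cKO libraries overlapped, and the cKO_SOD1 libraries lay between them and those of cWT_SOD1.

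**Figure D1:**
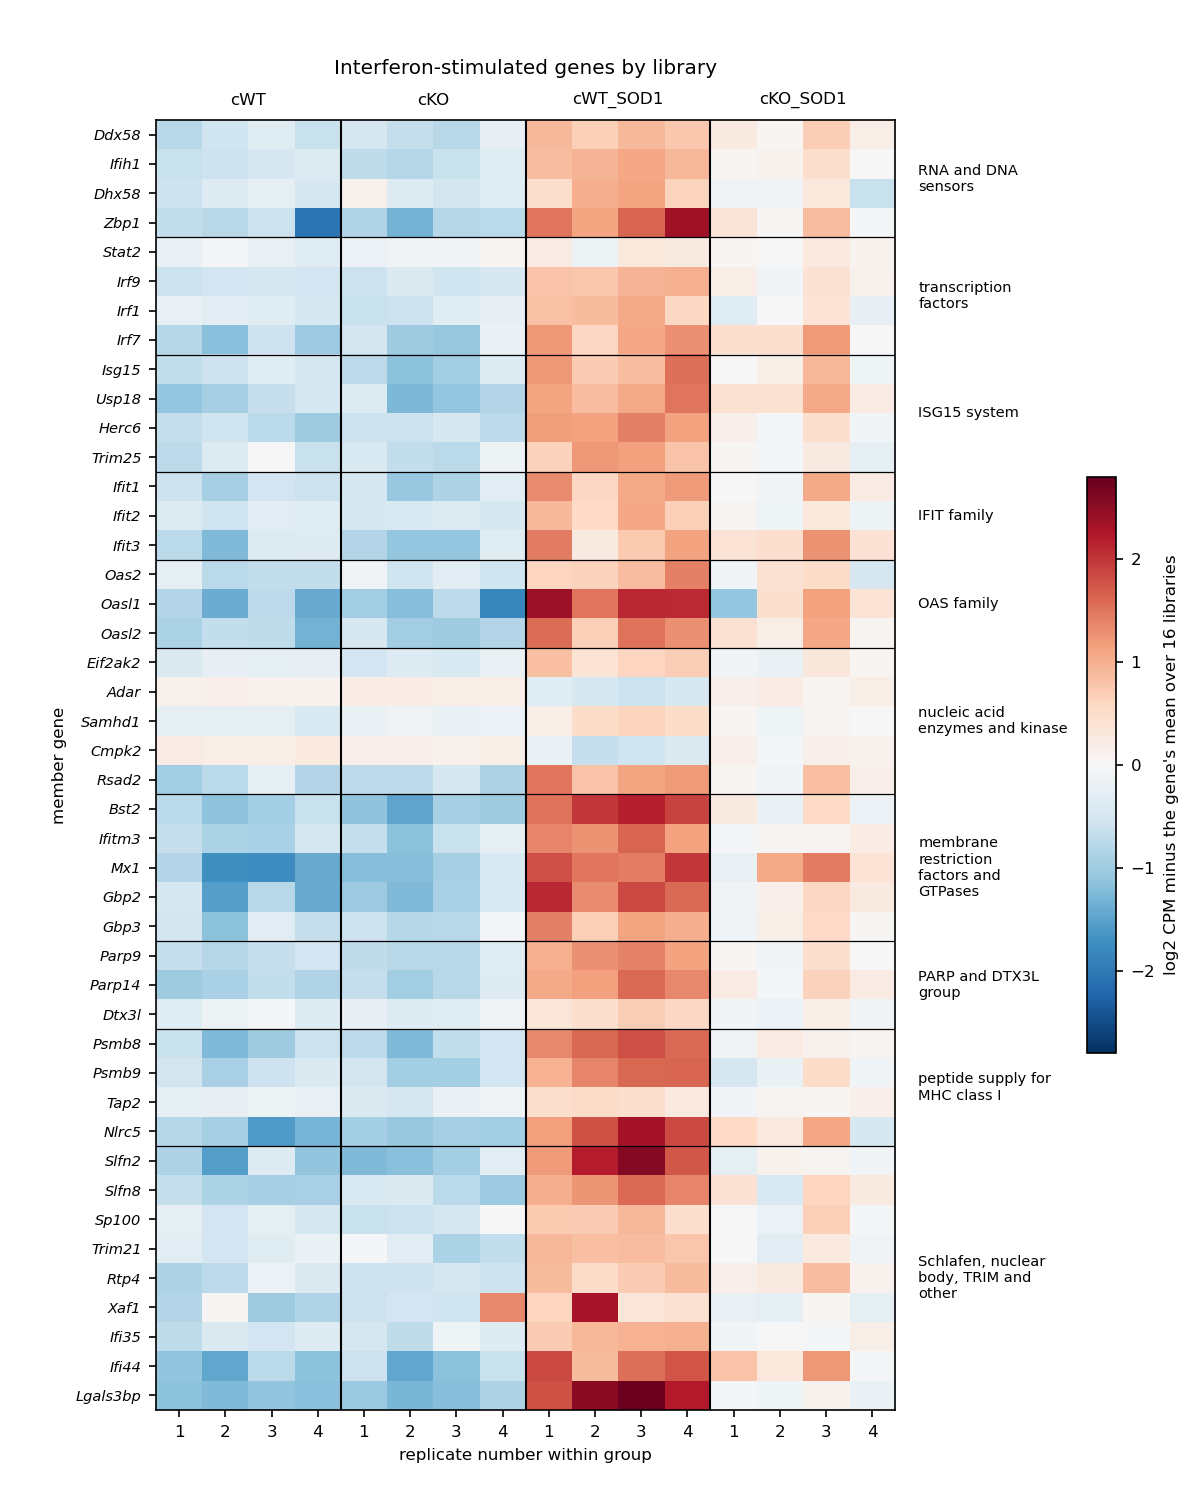
Each row is 1 of the 44 tested members, grouped by role, and each column is 1 library. Colour is the log2 CPM of the gene minus its mean over the 16 libraries, red above the mean and blue below. All rows except Adar and Cmpk2 are reddest in the cWT_SOD1 columns as a group, and cKO_SOD1 replicate 3 is redder than the other 3 libraries of its group in most rows.

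Promoters of the members were read from RefSeq windows on GRCm38.p6, each running from 250 bases before to 50 bases after an annotated start, and 35 of the 45 members matched a window by symbol. The ISRE core was searched as GAAANNGAA, with TTCNNTTTC as its other strand, where N is any base and overlapping matches count separately. The 5 windows printed here include those of the 3 members with 3 ISRE core matches. The other windows, of the 8 members with 2 matches, are the pair with the smallest p for the transgene effect in cWT. All are shown as matches of letters, and no binding at them was measured. They are given from 200 bases before to 30 bases from the start onward, in the direction of the gene, with the matches in capitals. Ifit1 lies at chr19:34640689-34640918 (plus strand), Isg15 at chr4:156200789-156201018 (minus strand), Ifit3 at chr19:34583329-34583558 (plus strand), Bst2 at chr8:71537443-71537672 (minus strand) and Ifitm3 at chr7:141010715-141010944 (minus strand).
Ifit1: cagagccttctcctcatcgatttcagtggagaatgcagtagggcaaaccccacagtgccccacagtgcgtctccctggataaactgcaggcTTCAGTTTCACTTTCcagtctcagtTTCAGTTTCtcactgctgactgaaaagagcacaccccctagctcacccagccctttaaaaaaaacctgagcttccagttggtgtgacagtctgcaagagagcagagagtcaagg
Isg15: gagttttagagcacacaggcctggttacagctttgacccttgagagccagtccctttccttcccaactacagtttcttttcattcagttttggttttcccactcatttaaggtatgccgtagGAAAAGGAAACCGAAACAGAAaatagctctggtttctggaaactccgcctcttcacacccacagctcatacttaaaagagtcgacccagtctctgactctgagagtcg
Ifit3: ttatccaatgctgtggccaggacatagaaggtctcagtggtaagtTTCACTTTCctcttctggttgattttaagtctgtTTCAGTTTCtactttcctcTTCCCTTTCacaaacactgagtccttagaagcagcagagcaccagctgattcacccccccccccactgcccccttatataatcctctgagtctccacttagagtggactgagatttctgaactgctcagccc
Bst2: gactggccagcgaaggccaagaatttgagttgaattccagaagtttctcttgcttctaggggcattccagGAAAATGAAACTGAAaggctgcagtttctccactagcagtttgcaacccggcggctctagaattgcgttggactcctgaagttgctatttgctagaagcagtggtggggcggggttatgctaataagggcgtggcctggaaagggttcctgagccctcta
Ifitm3: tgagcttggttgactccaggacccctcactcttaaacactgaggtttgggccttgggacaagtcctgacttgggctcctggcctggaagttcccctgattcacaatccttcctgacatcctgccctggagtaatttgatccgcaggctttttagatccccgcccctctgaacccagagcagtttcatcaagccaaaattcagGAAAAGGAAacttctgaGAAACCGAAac
The matches of Isg15 and of Bst2 share bases and form a single run of capitals, as do 2 of the 3 in Ifit1. Ifit1 and Ifit3 hold the motif on the opposite strand, and the Ifitm3 matches lie after the start.

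An ISRE core match was present in the windows of 18 of the 35 matched members (51.4%), against 9.76% of all 27025 genes with a window. In 11 of them there were 2 or more matches, against 0.74% of all genes. The GAS core, searched as TTCNNNGAA, which reads the same on both strands, was found for 9 of 35 members (25.7%), against 9.55% of all genes. Counted per window, with 1 Slfn8 site counted in each of the 2 overlapping windows that hold it, 33 ISRE core matches had their first base between position −249 and position 34, counted from the start as 1, with a median of −69. Adar held matches to both cores and fell with the transgene, and Lgals3bp and Slfn2, which rose among the most, held no ISRE core match in the window. A match is only a match of letters, and no binding was measured here.

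**Figure D2:**
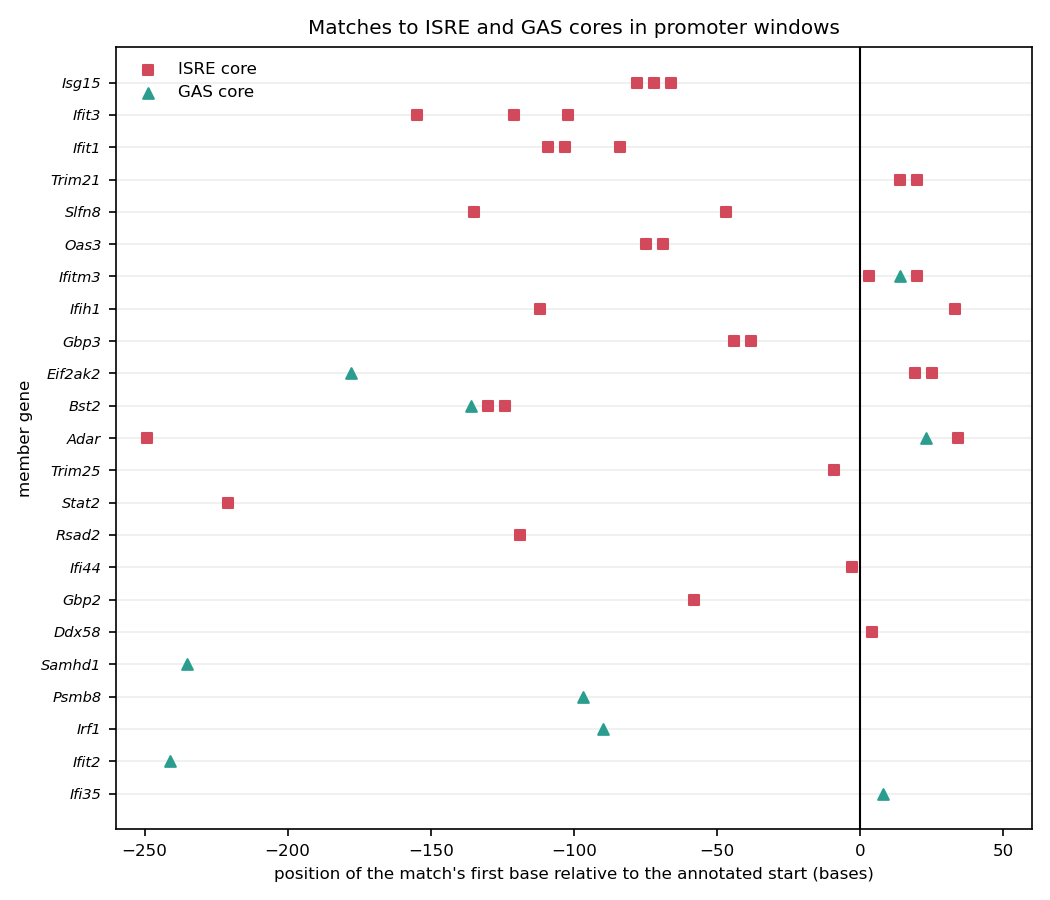
Each row is a member with at least 1 match, and the horizontal axis is the position in bases of the first base of a match relative to the annotated start, counted as 1, with the direction of the gene to the right. Red squares are ISRE core matches and green triangles GAS core matches, and both Slfn8 squares are 1 site seen from 2 starts. Ifit1, Isg15 and Ifit3 have 3 ISRE core matches each, all before the start.

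The 4 sensors of foreign nucleic acid rose in cWT_SOD1 and were all lower in cKO_SOD1 than in cWT_SOD1. Ifih1, which encodes the long double-stranded RNA sensor MDA5, stood at 6.40, 6.57, 7.17 and 7.59 CPM in cWT, 6.05, 5.62, 6.37 and 7.85 in cKO, 18.02, 19.2, 21.2 and 18.8 in cWT_SOD1 and 10.2, 10.7, 14.1 and 10.05 in cKO_SOD1. The 4 groups fell into 3 levels for Ifih1, with cWT and cKO overlapping at the bottom, cKO_SOD1 apart in the middle and cWT_SOD1 apart at the top. The transgene effect was 1.48 (SE 0.12, adjusted p = 8.45e-09) in cWT and 0.80 (SE 0.12, adjusted p = 0.000400) in cKO, and the interaction was −0.68 (SE 0.17, adjusted p = 0.00319). Dhx58, which encodes LGP2, a relative that modulates the other RNA sensors, stood at 1.89, 2.23, 2.39 and 2.05 CPM in cWT, 3.13, 2.23, 1.995 and 2.24 in cKO, 4.12, 5.92, 6.29 and 4.51 in cWT_SOD1 and 2.69, 2.72, 3.54 and 1.84 in cKO_SOD1. The cKO_SOD1 libraries of Dhx58 overlapped the cKO libraries, and the transgene effect of 0.17 (SE 0.20, adjusted p = 0.674) in cKO was not called while that in cWT was 1.29 (SE 0.20, adjusted p = 1.69e-05). The interaction for Dhx58 was −1.12 (adjusted p = 0.00389). Zbp1, which senses left-handed nucleic acid and can start necroptosis, stood at 0.307, 0.285, 0.333 and 0.0554 CPM in cWT, 0.265, 0.159, 0.277 and 0.293 in cKO, 1.78, 1.34, 1.98 and 3.38 in cWT_SOD1 and 0.761, 0.576, 1.12 and 0.547 in cKO_SOD1. Its libraries without the transgene held few counts, and its interaction of −1.48 (SE 0.64, adjusted p = 0.0695) was not called. Ddx58, which encodes RIG-I, rose by 1.39 in cWT and 0.84 in cKO and was 1.41-fold lower in cKO_SOD1 than in cWT_SOD1 (adjusted p = 0.00400), with libraries of those 2 groups overlapping. With 1 library left out, the call was lost in 8 of 16 fits for the Ddx58 interaction (adjusted p up to 0.0868) and in 6 for the Zbp1 rise in cKO (adjusted p up to 0.141).

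Among the 4 transcription factors, all rose in cWT_SOD1, and Irf9 and Irf1 were lower in cKO_SOD1 than in cWT_SOD1. Irf9, the DNA-binding part of the complex that recognises the ISRE, stood at 11.4, 11.9, 12.3 and 11.8 CPM in cWT, 11.3, 12.999, 11.7 and 12.5 in cKO, 29.96, 29.0, 33.5 and 34.6 in cWT_SOD1 and 19.4, 16.3, 22.8 and 18.8 in cKO_SOD1. Each cKO_SOD1 library of Irf9 lay above every library without the transgene and below every cWT_SOD1 library. The transgene effect on Irf9 was 1.42 (SE 0.09, adjusted p = 8.01e-10) in cWT and 0.67 (SE 0.09, adjusted p = 0.000166) in cKO. Its interaction was −0.75 (adjusted p = 0.000189). Irf1, a factor induced through GAS sites, stood at 5.74, 5.31, 5.22 and 4.71 CPM in cWT, 4.25, 4.35, 5.27 and 5.66 in cKO, 11.7, 12.4, 13.9 and 10.01 in cWT_SOD1 and 5.27, 6.60, 8.66 and 5.67 in cKO_SOD1. For Irf1 the cKO_SOD1 and cKO libraries overlapped and the rise of 0.43 (SE 0.15, adjusted p = 0.103) in cKO was not called, while the cKO_SOD1 level was 1.83-fold below that of cWT_SOD1 (adjusted p = 5.47e-05). Irf7, which amplifies the transcription of interferon genes, stood at 2.41, 1.83, 2.83 and 2.05 CPM in cWT, 2.97, 2.07, 1.995 and 3.75 in cKO, 9.97, 6.37, 9.18 and 10.5 in cWT_SOD1 and 5.97, 5.97, 9.83 and 4.28 in cKO_SOD1. The value of cKO_SOD1 replicate 3 lay within the cWT_SOD1 range, and neither the difference between those groups, −0.46 (SE 0.23, adjusted p = 0.0946), nor the interaction, −0.71 (SE 0.36, adjusted p = 0.123), was called. Stat2, which encodes a transcription factor of the same complex as IRF9, rose by 0.37 in cWT (SE 0.09, adjusted p = 0.00200), the smallest rise of the 42. Its effect in cKO was 0.17 (adjusted p = 0.315) and its interaction −0.20 (adjusted p = 0.220), neither called.

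The 4 genes of the ISG15 system, in which a ubiquitin-like protein is attached to and removed from targets, rose in cWT_SOD1 and were lower in cKO_SOD1. Herc6, the main ligase for ISG15 in mice, stood at 8.86, 9.59, 8.39 and 7.09 CPM in cWT, 9.45, 9.34, 10.4 and 8.53 in cKO, 32.0, 31.3, 37.7 and 31.0 in cWT_SOD1 and 15.6, 13.9, 19.8 and 13.4 in cKO_SOD1. All cKO_SOD1 libraries lay in a gap between the libraries without the transgene and those of cWT_SOD1. The transgene effect on Herc6 was 1.96 (SE 0.12, adjusted p = 4.83e-10) in cWT and 0.74 (SE 0.12, adjusted p = 0.000899) in cKO, and the interaction was −1.22 (adjusted p = 3.12e-05). Trim25, a ubiquitin ligase that acts on RIG-I, stood at 8.19, 10.5, 13.7 and 8.81 CPM in cWT, 10.1, 8.44, 8.09 and 12.4 in cKO, 21.5, 31.9, 30.2 and 23.7 in cWT_SOD1 and 13.9, 13.1, 16.2 and 11.2 in cKO_SOD1. Its cKO_SOD1 and cKO libraries overlapped, the effect of 0.48 (SE 0.18, adjusted p = 0.121) in cKO was not called, and the interaction was −0.91 (adjusted p = 0.00605). Isg15 itself stood at 1.64, 1.77, 2.11 and 1.94 CPM in cWT, 1.59, 1.17, 1.33 and 2.10 in cKO, 6.40, 4.47, 5.04 and 8.09 in cWT_SOD1 and 2.69, 3.04, 5.26 and 2.49 in cKO_SOD1. For Isg15, cKO_SOD1 replicate 3 reached the cWT_SOD1 range and the other 3 libraries of its group did not. Isg15 rose by 1.68 in cWT and 1.12 in cKO, where the call was lost without cKO replicate 2 or cKO_SOD1 replicate 3 (adjusted p up to 0.0547), and the interaction of −0.55 (SE 0.36, adjusted p = 0.231) was not called. Usp18, the protease that takes ISG15 off its targets and damps receptor signalling, rose by 1.99 and 1.48 and its interaction, −0.51 (adjusted p = 0.224), was not called. The lower level of Usp18 in cKO_SOD1 lost its call without any 1 of 4 libraries, cWT_SOD1 replicate 4 or cKO_SOD1 replicates 1, 2 and 4 (adjusted p up to 0.0763).

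The IFIT genes, whose tetratricopeptide proteins bind foreign RNA, rose with the transgene in both genotypes. Ifit2 stood at 19.3, 17.0, 20.1 and 19.7 CPM in cWT, 18.4, 18.6, 19.3 and 18.3 in cKO, 47.4, 36.9, 53.4 and 39.9 in cWT_SOD1 and 26.6, 23.1, 30.8 and 22.8 in cKO_SOD1. The 8 libraries without the transgene spanned a narrow range for Ifit2, and cKO_SOD1 lay above them and below cWT_SOD1 with no overlap. Its transgene effect was 1.22 (SE 0.11, adjusted p = 3.61e-08) in cWT and 0.47 (SE 0.11, adjusted p = 0.0137) in cKO, and its interaction −0.75 (adjusted p = 0.000849). Without cKO_SOD1 replicate 3 the rise of Ifit2 in cKO was no longer called (adjusted p = 0.0562). Ifit1 stood at 5.27, 4.11, 5.39 and 5.21 CPM in cWT, 5.68, 3.71, 4.27 and 6.34 in cKO, 19.99, 11.8, 16.5 and 18.3 in cWT_SOD1 and 7.90, 7.49, 16.5 and 9.25 in cKO_SOD1. The cKO_SOD1 replicate 3 value of Ifit1 was as high as a cWT_SOD1 library, and its interaction of −0.69 (SE 0.34, adjusted p = 0.110) was not called. The Ifit1 rise in cKO, 1.05 (SE 0.24, adjusted p = 0.0115), was no longer called without cKO replicate 2 (adjusted p = 0.0510), nor was its difference between cKO_SOD1 and cWT_SOD1 without cKO_SOD1 replicate 2 (adjusted p = 0.0514). Ifit3 stood at 9.37, 6.68, 12.2 and 12.4 CPM in cWT, 9.02, 7.48, 7.48 and 12.5 in cKO, 43.9, 18.9, 26.5 and 34.8 in cWT_SOD1 and 20.8, 21.99, 38.0 and 21.0 in cKO_SOD1. Its cKO_SOD1 libraries all exceeded those without the transgene and overlapped the cWT_SOD1 libraries, and Ifit3 was the member with the most similar effects in the 2 genotypes. They were 1.61 (SE 0.27, adjusted p = 4.35e-05) in cWT and 1.48 (SE 0.27, adjusted p = 0.00189) in cKO. The interaction was −0.13 (SE 0.38, adjusted p = 0.811), and its 95% interval ran from −0.95 to 0.69. Without cKO_SOD1 replicate 3, which is the highest of its group, the Ifit3 interaction was −0.40 (adjusted p = 0.377).

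Oligoadenylate synthetases make the messenger that activates RNase L, and their relatives Oasl1 and Oasl2 share the fold. Oasl1, known in mice to restrain the translation of Irf7 messenger RNA, stood at 0.307, 0.171, 0.333 and 0.166 CPM in cWT, 0.265, 0.212, 0.333 and 0.0975 in cKO, 3.81, 1.96, 3.06 and 2.98 in cWT_SOD1 and 0.234, 0.890, 1.49 and 0.845 in cKO_SOD1. All 4 cWT_SOD1 libraries of Oasl1 exceeded every other library, while cKO_SOD1 replicate 1 fell within the range of cKO. The effect was 3.55 (SE 0.41, adjusted p = 6.51e-07) in cWT and 1.96 (SE 0.48, adjusted p = 0.0169) in cKO, and the interaction of −1.59 (SE 0.72, adjusted p = 0.0833) was not called. The Oasl1 rise in cKO lost its call without cKO replicate 2, cKO replicate 4 or cKO_SOD1 replicate 3 (adjusted p up to 0.0812). Oasl2 stood at 5.74, 6.57, 6.44 and 4.21 CPM in cWT, 7.80, 5.36, 5.27 and 5.997 in cKO, 31.8, 16.8, 30.6 and 26.1 in cWT_SOD1 and 14.3, 12.2, 22.6 and 11.3 in cKO_SOD1. Its cKO_SOD1 libraries were all above those without the transgene, replicate 3 reached the cWT_SOD1 range, and the interaction was −0.89 (adjusted p = 0.0376). Oas2 stood at 0.922, 0.628, 0.667 and 0.665 CPM in cWT, 1.06, 0.743, 0.887 and 0.731 in cKO, 1.78, 1.84, 2.15 and 3.18 in cWT_SOD1 and 1.05, 1.57, 1.68 and 0.796 in cKO_SOD1. The cKO_SOD1 and cKO libraries of Oas2 overlapped, and its effect in cKO, 0.58 (SE 0.27, adjusted p = 0.222), was not called. The interactions of Oasl2 and Oas2 were no longer called with 1 library left out in 10 and 8 of 16 cases (adjusted p up to 0.0928 and 0.0826). Oas3 had 4 counts over the cWT libraries, 3 over cKO, 54 over cWT_SOD1 and 33 over cKO_SOD1. Per library size this is a ratio of 14.8 in cWT (95% counting interval 5.44 to 56.1), of 10.8 in cKO (3.38 to 54.97) and of 0.526 between cKO_SOD1 and cWT_SOD1 (0.330 to 0.825), where the intervals cover counting error only. Replicate 3 held 28 of the 54 counts of cWT_SOD1 and 18 of the 33 of cKO_SOD1. Without cWT_SOD1 replicate 3 the Oas3 ratio was 9.65 in cWT and 0.804 between cKO_SOD1 and cWT_SOD1 (0.466 to 1.40), an interval that holds 1. Without cKO_SOD1 replicate 3 it was 6.77 in cKO and 0.330 between the groups with the transgene, and without cKO_SOD1 replicate 4 the interval of the latter also held 1 (0.398 to 1.03). In the edgeR fit with no filter on low counts, Oas3 was not called between cKO_SOD1 and cWT_SOD1 (−0.91, adjusted p = 0.135).

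The group of nucleic acid enzymes held the only 2 members that fell with the transgene. Adar, which edits adenosine to inosine in double-stranded RNA, stood at 248, 255, 251 and 247 CPM in cWT, 267, 265, 260.05 and 260.1 in cKO, 181, 168, 152 and 168 in cWT_SOD1 and 255, 265, 244 and 256 in cKO_SOD1. The cWT_SOD1 libraries of Adar lay below all 12 others, and cKO_SOD1 overlapped cWT and cKO. The transgene effect was −0.58 (SE 0.05, adjusted p = 1.45e-08) in cWT and −0.05 (SE 0.05, adjusted p = 0.634) in cKO, and the interaction 0.54 (SE 0.07, adjusted p = 1.50e-05). Cmpk2, a mitochondrial nucleotide kinase, stood at 49.0, 47.4, 47.6 and 50.2 CPM in cWT, 46.5, 45.9, 45.6 and 47.1 in cKO, 36.9, 26.8, 28.4 and 31.6 in cWT_SOD1 and 46.1, 40.0, 46.3 and 45.6 in cKO_SOD1. As for Adar, the cWT_SOD1 libraries were the lowest 4 of the 16, and cKO_SOD1 overlapped cKO. The effect on Cmpk2 was −0.65 (SE 0.08, adjusted p = 8.62e-07) in cWT and −0.06 (SE 0.07, adjusted p = 0.712) in cKO, and the interaction was 0.60 (SE 0.11, adjusted p = 0.000263). Samhd1, which breaks down deoxynucleotides, stood at 22.1, 21.8, 21.7 and 19.6 CPM in cWT, 23.2, 24.6, 23.1 and 23.6 in cKO, 29.9, 37.6, 40.8 and 37.4 in cWT_SOD1 and 27.4, 24.1, 27.9 and 26.2 in cKO_SOD1. The cWT_SOD1 libraries of Samhd1 were the highest 4 of the 16, and cKO_SOD1 overlapped cKO. Samhd1 rose by 0.78 (SE 0.08) in cWT, its effect of 0.16 (SE 0.08, adjusted p = 0.258) in cKO was not called, and the interaction was −0.61 (adjusted p = 0.000306). Eif2ak2, the kinase PKR that halts translation on sensing double-stranded RNA, rose by 0.92 in cWT and 0.42 in cKO (adjusted p = 0.0269). Rsad2, which encodes viperin, rose by 1.91 and 1.03 in cWT and cKO. Both had called interactions, −0.50 and −0.88. The Eif2ak2 rise in cKO lost its call in 5 of 16 fits that left out 1 library, cKO_SOD1 replicate 3 among them (adjusted p up to 0.117), and the Rsad2 interaction in 8 of 16 (adjusted p up to 0.0690).

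All 5 membrane restriction factors and GTPases rose in both genotypes and were lower in cKO_SOD1 than in cWT_SOD1. Bst2, or tetherin, which holds budding virus particles at the cell surface, stood at 3.74, 2.85, 3.22 and 4.10 CPM in cWT, 2.87, 2.23, 3.27 and 3.12 in cKO, 18.3, 25.4, 28.9 and 23.7 in cWT_SOD1 and 7.55, 5.55, 9.41 and 5.62 in cKO_SOD1. The cKO_SOD1 libraries of Bst2 formed a separate group between the others, with an effect of 2.79 (SE 0.18, adjusted p = 8.84e-10) in cWT, 1.29 (SE 0.20, adjusted p = 0.000419) in cKO and −1.497 (adjusted p = 0.000265) for the interaction. Ifitm3, which blocks fusion of viruses with endosomes, stood at 14.1, 11.9, 11.7 and 15.6 CPM in cWT, 13.96, 9.87, 14.2 and 18.4 in cKO, 57.1, 52.7, 68.7 and 48.2 in cWT_SOD1 and 21.1, 22.7, 23.2 and 25.5 in cKO_SOD1. Every cWT_SOD1 library held more than every cKO_SOD1 library, and the effects were 2.09 (SE 0.15) and 0.71 (SE 0.15, adjusted p = 0.00556), and the interaction was −1.38 (adjusted p = 6.12e-05). Gbp2, a guanylate-binding protein of the defence against intracellular pathogens, stood at 6.81, 3.14, 5.44 and 3.43 CPM in cWT, 4.56, 3.93, 4.93 and 6.92 in cKO, 40.7, 23.5, 33.8 and 28.0 in cWT_SOD1 and 8.72, 10.4, 13.97 and 11.1 in cKO_SOD1. The groups with the transgene did not overlap each other or their controls for Gbp2, and its interaction was −1.61 (adjusted p = 0.000799). Gbp3 rose by 1.72 in cWT and by 0.72 in cKO, and the latter lost its call in 9 of 16 fits that left out 1 library (adjusted p up to 0.162, without cKO_SOD1 replicate 3). Mx1, a dynamin-like GTPase, had the highest log2 fold change of the 44 tested members in this fit, 3.62 (SE 0.41, adjusted p = 5.30e-07) in cWT and 2.03 (SE 0.40, adjusted p = 0.00342) in cKO, at no more than 0.439 CPM in any library without the transgene. On the log2(FPKM + 1) scale, which understates low genes, the Mx1 effect in cWT was 0.76. Its interaction of −1.59 (SE 0.65, adjusted p = 0.0538) was not called.

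The ADP-ribosyltransferase genes Parp9 and Parp14 and the ubiquitin ligase gene Dtx3l, whose product partners PARP9, rose in cWT_SOD1. Parp9 stood at 5.02, 4.51, 5.0 and 5.43 CPM in cWT, 4.83, 4.56, 4.60 and 6.29 in cKO, 15.9, 19.5, 21.0 and 17.6 in cWT_SOD1 and 8.14, 7.54, 11.1 and 7.81 in cKO_SOD1. Parp14 stood at 5.07, 5.42, 6.33 and 5.65 CPM in cWT, 6.42, 5.15, 5.93 and 7.95 in cKO, 21.6, 22.7, 31.2 and 26.1 in cWT_SOD1 and 12.002, 10.1, 16.02 and 12.03 in cKO_SOD1. In both genes cKO_SOD1 lay between the controls and cWT_SOD1 without overlap. Their effects in cWT were 1.89 (SE 0.14) and 2.18 (SE 0.16), their effects in cKO 0.77 (adjusted p = 0.00180) and 0.98 (adjusted p = 0.000709), and their interactions −1.12 (adjusted p = 0.000191) and −1.20 (adjusted p = 0.000316). Dtx3l stood at 9.93, 11.5, 12.2 and 9.86 CPM in cWT, 10.8, 9.76, 10.03 and 11.8 in cKO, 15.9, 17.5, 20.4 and 19.03 in cWT_SOD1 and 12.002, 11.3, 14.4 and 11.8 in cKO_SOD1. Its cKO_SOD1 libraries overlapped those of cKO and its effect of 0.23 (SE 0.10, adjusted p = 0.221) there was not called, against 0.75 (SE 0.10, adjusted p = 5.26e-06) in cWT. The mm9 gene spans of Parp9 and Dtx3l overlap by 558 bases, and no source used here says whether the counting used strand.

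The 4 genes that supply peptides to MHC class I rose in cWT_SOD1, and all 4 had called interactions. Psmb8, a catalytic subunit of the immunoproteasome, stood at 4.30, 2.74, 3.28 and 4.32 CPM in cWT, 3.93, 2.76, 4.05 and 4.53 in cKO, 17.2, 20.3, 23.5 and 20.2 in cWT_SOD1 and 6.15, 7.75, 7.27 and 7.01 in cKO_SOD1. The cKO_SOD1 libraries of Psmb8 were tightly grouped above the controls and below cWT_SOD1, with effects of 2.47 (SE 0.15, adjusted p = 4.68e-10) in cWT and 0.88 (SE 0.16, adjusted p = 0.00164) in cKO. The interaction was −1.58 (adjusted p = 2.92e-05). Psmb9, another such subunit, stood at 1.69, 1.26, 1.61 and 1.83 CPM in cWT, 1.70, 1.22, 1.22 and 1.66 in cKO, 4.92, 6.48, 7.76 and 7.82 in cWT_SOD1 and 1.76, 2.15, 3.54 and 2.34 in cKO_SOD1. Its effect of 0.76 (SE 0.23, adjusted p = 0.0514) in cKO was just short of the call, and its interaction was −1.31 (adjusted p = 0.00260). Nlrc5, the transactivator of MHC class I genes, stood at 1.997, 1.83, 1.11 and 1.38 CPM in cWT, 1.805, 1.64, 1.83 and 1.76 in cKO, 7.997, 12.6, 18.4 and 13.1 in cWT_SOD1 and 5.33, 4.35, 7.69 and 2.59 in cKO_SOD1. All 4 cKO_SOD1 libraries of Nlrc5 were above their controls and below cWT_SOD1, and its interaction was −1.53 (adjusted p = 0.00895). Tap2, a subunit of the transporter that carries peptides into the endoplasmic reticulum, rose by 0.67 in cWT and 0.33 in cKO. With 1 library left out, its call was lost in 4 of 16 fits for the rise in cKO (adjusted p up to 0.0803) and in 2, without cKO replicate 3 or 4, for the interaction (adjusted p up to 0.0585).

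The 9 remaining members rose in cWT_SOD1, and 8 of them were lower in cKO_SOD1 than in cWT_SOD1. Lgals3bp, which encodes a secreted glycoprotein that binds galectins, stood at 27.2, 25.7, 28.4 and 26.8 CPM in cWT, 29.4, 24.99, 26.6 and 33.3 in cKO, 209, 353, 409.9 and 284 in cWT_SOD1 and 59.0, 56.0, 65.2 and 53.4 in cKO_SOD1. The lowest cWT_SOD1 library of Lgals3bp, at 209 CPM, lay above the highest of the other 12, at 65.2 CPM. The effect was 3.54 (SE 0.16, adjusted p = 1.42e-11) in cWT and 1.03 (SE 0.15, adjusted p = 0.000388) in cKO, and its interaction of −2.51 (SE 0.22, adjusted p = 5.70e-07) was the lowest of the members. Slfn2, a schlafen gene with a known part in immune cell quiescence, stood at 1.08, 0.628, 1.56 and 0.886 CPM in cWT, 0.796, 0.849, 0.998 and 1.61 in cKO, 4.80, 9.78, 12.6 and 7.10 in cWT_SOD1 and 1.70, 2.20, 2.14 and 1.94 in cKO_SOD1. Each cKO_SOD1 library of Slfn2 exceeded each cKO library, but the effect of 0.90 (SE 0.33, adjusted p = 0.121) in cKO was not called, against 3.04 (SE 0.30, adjusted p = 9.90e-08) in cWT. The Slfn2 interaction was −2.15 (adjusted p = 0.00112). Ifi35 stood at 3.28, 4.05, 3.67 and 4.21 CPM in cWT, 3.87, 3.24, 4.99 and 4.19 in cKO, 8.86, 10.3, 10.7 and 10.9 in cWT_SOD1 and 5.15, 5.34, 5.31 and 6.02 in cKO_SOD1. Its effect of 0.42 (SE 0.13, adjusted p = 0.0511) in cKO was not called, and its interaction was −1.003 (adjusted p = 0.000221).

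Xaf1, which antagonises an inhibitor of apoptosis, had single libraries far from their groups. It stood at 5.99, 10.8, 5.28 and 5.87 CPM in cWT, 7.01, 7.32, 7.15 and 27.3 in cKO, 16.2, 53.2, 13.5 and 14.3 in cWT_SOD1 and 9.13, 8.85, 10.99 and 8.70 in cKO_SOD1. The 2 highest values were those of cWT_SOD1 replicate 2 and cKO replicate 4, and with the latter the cKO libraries overlapped those of both groups with the transgene. The Xaf1 effect in cWT was 1.81 (SE 0.49, adjusted p = 0.00338), and 1.08 (adjusted p = 0.0271) without cWT_SOD1 replicate 2. Its difference between cKO_SOD1 and cWT_SOD1 was −1.37 (SE 0.47, adjusted p = 0.0188), and −0.64 (adjusted p = 0.180), no longer called, without that library. Its interaction was −2.19 (SE 0.68, adjusted p = 0.0148), and −1.41 (adjusted p = 0.0545), no longer called, without cKO replicate 4. The remaining 5 members of this group were Slfn8, the nuclear body gene Sp100, the cytosolic antibody receptor gene Trim21, Rtp4 and Ifi44. They rose by 2.20, 1.14, 1.21, 1.304 and 2.77 in cWT. In cKO their effects were 0.90, 0.57, 0.43, 0.96 and 1.64, of which those of Sp100 and Trim21 were not called. The Rtp4 difference between cKO_SOD1 and cWT_SOD1, −0.38 (SE 0.17, adjusted p = 0.0615), was not called. The called interaction of Ifi44 was lost in 12 of 16 fits that left out 1 library (adjusted p up to 0.109).

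**Figure D3:**
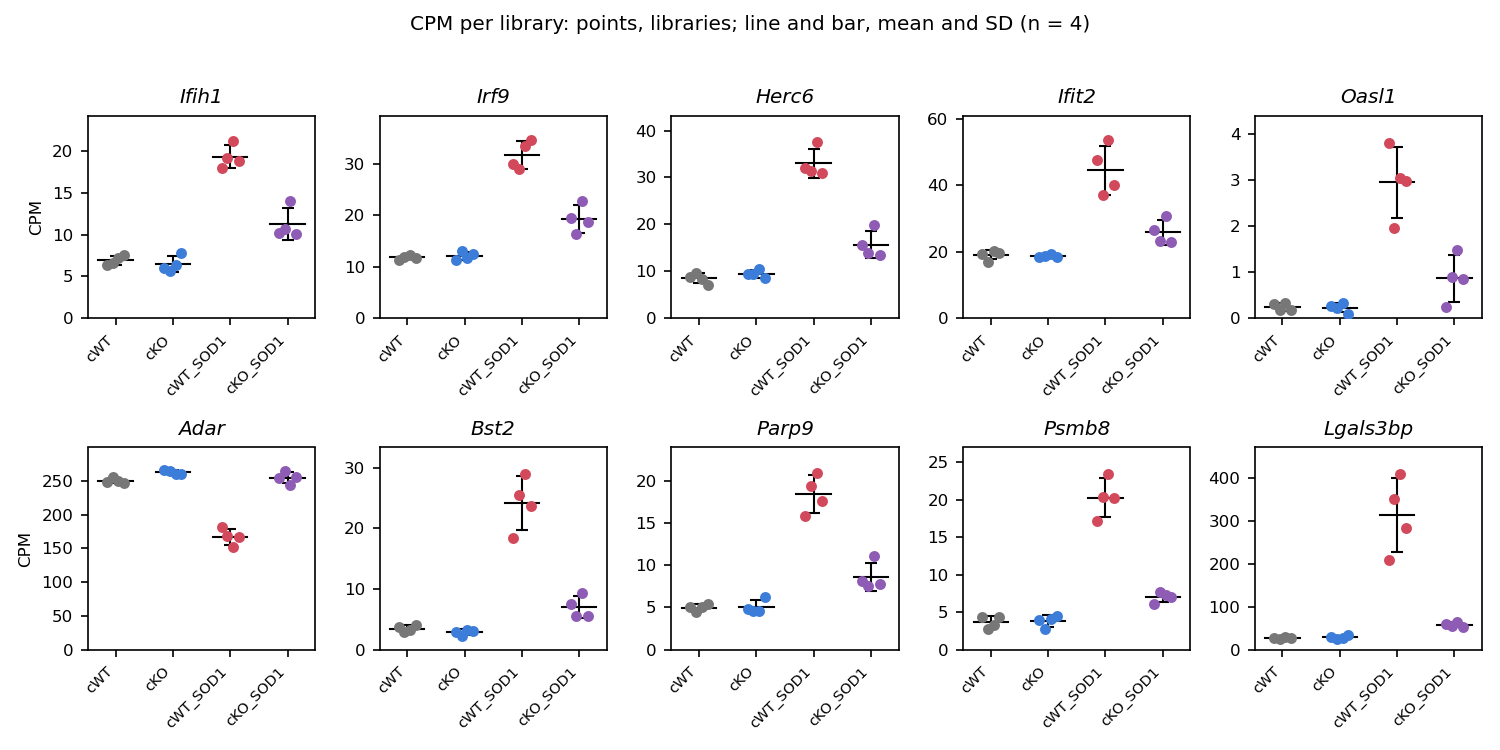
CPM in each of the 16 libraries for the member of each role group with the smallest p between cKO_SOD1 and cWT_SOD1. Points are libraries, the line is the group mean and the bar the SD (n = 4), and each vertical axis starts at 0. In 9 panels cWT_SOD1 is the highest group and cKO_SOD1 lies below it, and in the Adar panel cWT_SOD1 is the lowest.

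Over the 4 tests that involve the transgene, the calls fell into 7 patterns. The shares of all tested genes in the same joint patterns were not computed, so no pattern is shown to be particular to the members. The largest held 20 members that rose in both genotypes, were lower in cKO_SOD1 than in cWT_SOD1 and had a called interaction. A further 11 were called in cWT but not in cKO, with a called interaction. They were Dhx58, Irf1, Trim25, Oas2, Samhd1, Dtx3l, Psmb9, Slfn2, Trim21, Xaf1 and Ifi35. In at least 1 alternative run the rise in cKO was called for Trim25, Psmb9, Slfn2, Trim21 and Ifi35, and also for Sp100. A rise in cKO that was not called is therefore not shown to be absent. Zbp1, Isg15, Usp18, Ifit1, Oasl1 and Mx1 rose in both genotypes and were lower in cKO_SOD1, but their interaction was not called. Irf7, Ifit3 and Rtp4 rose in both with no called difference between cKO_SOD1 and cWT_SOD1. Sp100 rose in cWT, was lower in cKO_SOD1 and had no called interaction, and Stat2 was called in cWT alone. The plot of effects in cWT against cKO places every member that rose below the line of equal effects. The share of all risen genes below that line was not computed.

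**Figure D4:**
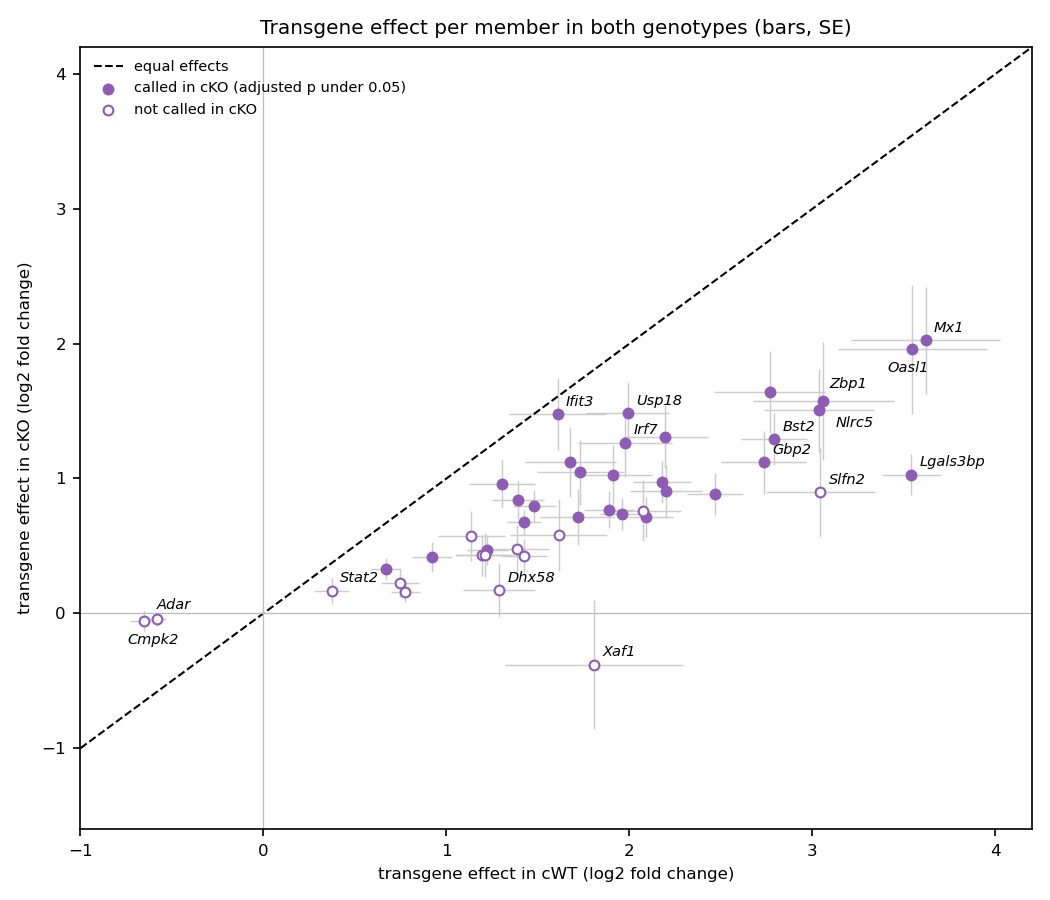
Each point is a tested member, with its transgene effect in cWT on the horizontal axis and in cKO on the vertical axis, both as log2 fold changes with SE bars. Filled points were called in cKO. Points of members that rose lie below the dashed line of equal effects, Ifit3 nearest to it, and Adar and Cmpk2 lie above it at the lower left.

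The rise in mean CPM in cKO was also taken as a percentage of the rise in cWT, as a description with no test. It was not computed over all genes that rose, so the values below are not shown to be particular to the members. Over the 42 members that rose in cWT the median was 28.1%. It ran from −15.98% for Xaf1, 9.76% for Dhx58, 10.4% for Lgals3bp and 12.4% for Slfn2 up to 56.9% for Usp18, 62.2% for Rtp4 and 78.2% for Ifit3. Leaving out 1 library at a time moved Xaf1 within −36.1% to 13.1%, so that its sign turned, Dhx58 within 0.628% to 19.1%, Lgals3bp within 9.26% to 11.7% and Ifit3 within 58.2% to 98.5%. The range of Ifit3 lay above those of the other 3. The IFIT family had a median of 45.5% and the transcription factors 41.1%, while the membrane factors stood at 22.3% and the MHC class I supply genes at 23.8%. The ranges of those 4 role groups overlapped. Members with an ISRE core match in their promoter window had a median of 36.0% (n = 16, range 20.2% to 78.2%), and members with a window and no match had 24.0% (n = 16, range −15.98% to 56.6%). Those ranges also overlapped, and the median transgene effect in cWT was 1.68 and 1.81 in the same order, over 17 members each.

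**Figure D5:**
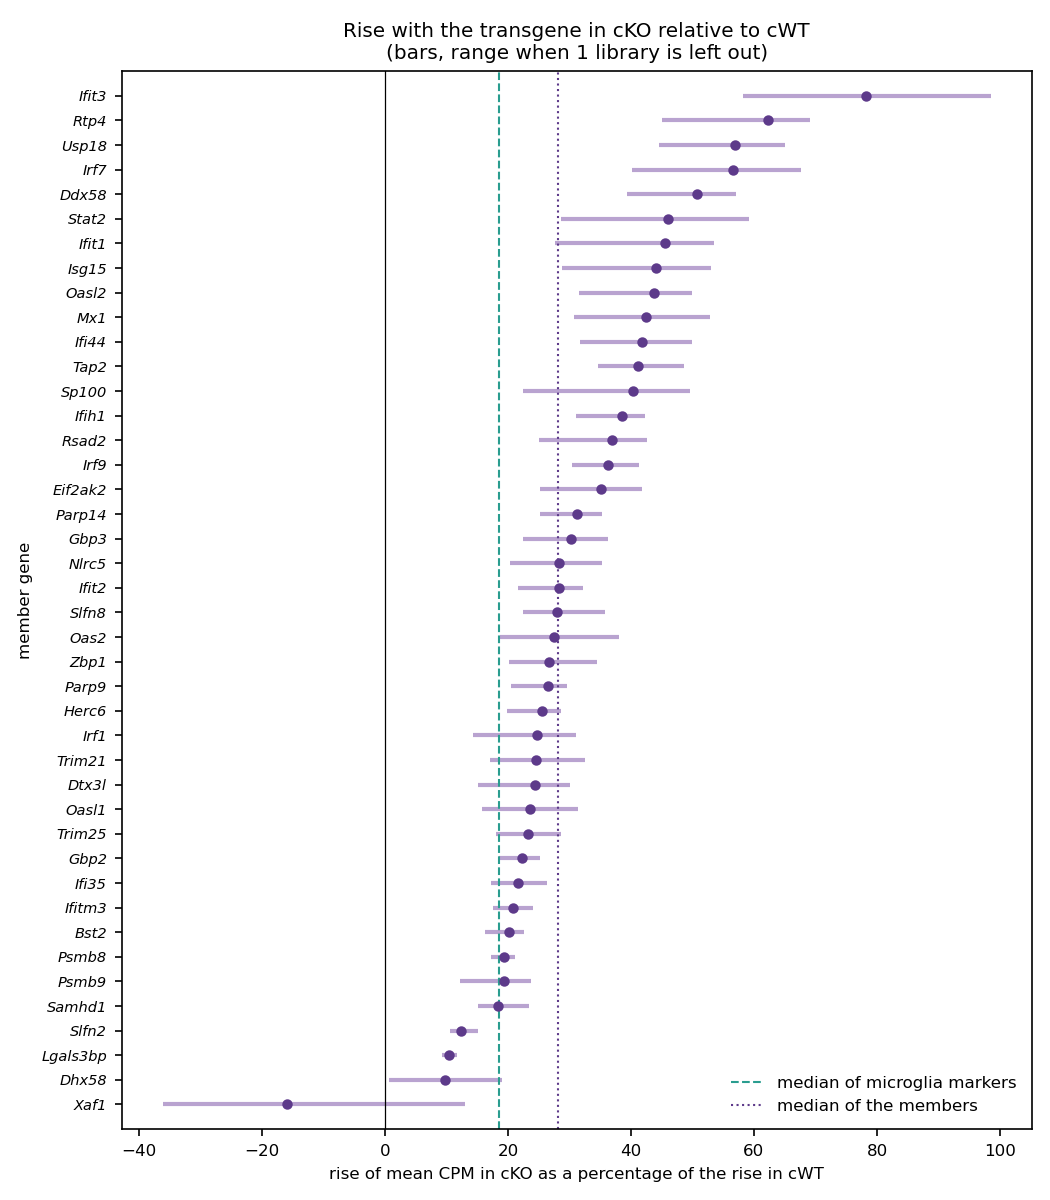
For each member that rose in cWT, the point is the rise of mean CPM with the transgene in cKO as a percentage of the rise in cWT, and the bar is the range when 1 library is left out. The dotted line is the median of the members at 28.1% and the dashed line the median of 10 microglia markers at 18.6%. Those markers, not drawn singly, ran from 12.3% to 78.2% and overlapped the members. Ifit3 is at the top at 78.2% and Xaf1 at the bottom at −15.98%.

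Without the transgene the Atg7 genotype moved no member past the test. In cKO against cWT, 0 of 44 members were called by edgeR, none had an unadjusted p under 0.05, and DESeq2 and limma also called 0. Over all genes 0.0259% were called, 0.00648% higher and 0.0194% lower. The median member differed by 0.04, and 42 of the 44 differed by less than 0.3 on the log2 scale. The 3 members with the smallest p were Samhd1 at 0.15 (SE 0.08), Xaf1 at 0.82 (SE 0.50) and Stat2 at 0.14 (SE 0.09), each with an adjusted p of 0.9995. The 95% interval ran from −0.03 to 0.33 for Samhd1 and from −0.26 to 1.90 for Xaf1. Across all 44 members the bounds of these intervals reached −1.48 and 1.92, so for some members a sizeable difference was not excluded. All 4 cKO libraries of Samhd1 and of Adar exceeded all 4 cWT libraries, and those of Cmpk2 were all below, which was so for 1.55% and 1.93% of all genes.

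The members also differed among themselves in level. By FPKM, which scales for transcript length as well as library size, Adar was the most abundant member in cWT at 42.6 ± 0.899 (SD, n = 4), followed by Ifitm3 at 29.6 ± 3.92, Cmpk2 at 15.8 ± 0.303 and Lgals3bp at 13.4 ± 0.582. In cWT_SOD1 the order was Lgals3bp at 161 ± 42.7, Ifitm3 at 130.5 ± 20.4, Bst2 at 43.02 ± 7.03 and Adar at 29.3 ± 2.71. Neighbours in these orders did not overlap between libraries, except that in cWT_SOD1 Lgals3bp ran from 110.6 to 208.9 and Ifitm3 from 109.9 to 156.6. In cKO_SOD1 Ifitm3 led at 52.8 ± 3.92, then Adar at 44.5 ± 1.01 and Lgals3bp at 29.8 ± 2.99.

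Replicate 3 of cKO_SOD1 stood apart for the members. It was the highest of its group for 38 of the 44 members, against 23.7% of all genes and 5 of 10 microglia markers. The mean over members of the centred log2 CPM was 0.05, 0.06, 0.55 and 0.01 in replicates 1 to 4 of cKO_SOD1, and 0.94 to 1.17 in the cWT_SOD1 libraries. Without that library, 23 members rather than 29 were called for the transgene effect in cKO, 42 rather than 40 between cKO_SOD1 and cWT_SOD1, and 41 rather than 33 for the interaction. Over all genes the shares called without it were 4.9% rather than 7.28%, 55.3% rather than 58.2% and 43.3% rather than 45% in the same order. Zbp1, Isg15, Ifit2, Oasl1, Eif2ak2 and Gbp3 lost their called rise in cKO, Irf7 and Rtp4 gained a called difference between cKO_SOD1 and cWT_SOD1, and Ifit1, Irf7, Isg15, Mx1, Oasl1, Rtp4, Sp100 and Zbp1 gained a called interaction. Over all 16 fits that left out 1 library, the members that lost a call in at least 1 were 0 for the transgene effect in cWT, 8 for that in cKO, 3 between cKO_SOD1 and cWT_SOD1 and 7 for the interaction. Those that gained a call in at least 1 of these fits were 0, 5, 2 and 9 in the same order. What sets cKO_SOD1 replicate 3 apart was not tested.

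Interferon genes themselves were at or near 0. Of 8 ligand genes with a row, Ifna1, Ifna2, Ifna4, Ifna5 and Ifne had 0 counts in all 16 libraries, and Ifnb1, Ifnk and Ifng had 2, 2 and 5 counts over all libraries together, so none could be tested. Of 5 receptor genes, 4 rose in cWT_SOD1 and 0 in cKO_SOD1, and all 5 were lower in cKO_SOD1 than in cWT_SOD1 with a called interaction. Il10rb rose by 1.91 (SE 0.12) and Ifnar2 by 1.37 (SE 0.10) in cWT, against 0.41 (adjusted p = 0.0518) and 0.34 (adjusted p = 0.0506) in cKO, neither called. Of 4 receptor kinases and STATs, 3 rose and Jak1 fell by 0.44 in cWT_SOD1, and Stat3 rose by 0.83. In cKO, Stat3 rose by 0.23 and Jak1 fell by 0.29. Of 13 genes of the interferon induction pathway, which include the restraining nuclease gene Trex1, 12 rose and Tbk1 fell by 0.18 in cWT, 8 rose in cKO and 11 were lower in cKO_SOD1 than in cWT_SOD1. The transcription factor gene Irf8 rose by 3.56 in cWT and 1.38 in cKO, and the RNA receptor gene Tlr7 by 3.71 and 1.08. Of 5 feedback inhibitors, 3 rose in cWT and 2 in cKO, and Socs3 rose by 3.83 and 1.55 and Ptpn6 by 3.09 and 1.01. Beside these counts, 33.2% of all genes were called higher and 33.1% lower in cWT, and 4.8% and 2.48% in cKO. The share called lower was 29.1% between cKO_SOD1 and cWT_SOD1 and 21.8% for the interaction.

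Most microglia and astrocyte markers moved in the same direction as the members. All 10 microglia markers rose in cWT_SOD1 (median 2.29, range 0.39 to 4.29), 8 rose in cKO_SOD1, 9 were lower in cKO_SOD1 than in cWT_SOD1 and 8 had a called lower interaction. Their summed level was 399 to 434 CPM in cWT, 389 to 514 in cKO, 1658 to 2422 in cWT_SOD1 and 694 to 759 in cKO_SOD1, and no marker was at 0 in any library. Of 6 astrocyte markers, 5 rose in cWT_SOD1 and 2 in cKO_SOD1, with sums of 7486 to 7846, 7213 to 7973, 19505 to 23978 and 11098 to 11684 CPM. The sum does not stand for each astrocyte marker. Gfap had 23464 to 29184 counts per library in cWT and 182831 to 253178 in cWT_SOD1. Aldoc had 30542 to 35151 and 25435 to 34008 in the same groups. The microglia markers had a median of 18.6% of the cWT rise in cKO and the 5 astrocyte markers that rose had 25.4%, beside the 28.1% of the members. The ranges overlapped, at 12.3% to 78.2% for microglia markers, 12.3% to 27.5% for astrocyte markers and −15.98% to 78.2% for members. Neuron markers fell, 5 of 5 in cWT_SOD1, and motor neuron markers fell in both genotypes, 6 of 6 each. Of all genes, 33.2% were called higher and 33.1% lower in cWT_SOD1, and 4.8% and 2.48% in cKO_SOD1.

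Lymphocyte and blood cell markers were low. The summed T cell markers were 0.56 to 1.48 CPM in cWT, 0.61 to 0.93 in cKO, 3.20 to 3.96 in cWT_SOD1 and 0.94 to 1.84 in cKO_SOD1, and Cd3e, Cd3d, Cd3g and Cd8a were at 0 in 3, 5, 7 and 8 of the 16 libraries. Of the T cell markers, Cd4 and Lck had enough counts to be tested and both rose in cWT_SOD1. None of 4 natural killer cell markers and 1 of 4 B cell markers could be tested, and of 3 tested monocyte and neutrophil markers 0 were called in cWT_SOD1 (edgeR, adjusted p). Of 5 endothelial markers 1 rose in cWT_SOD1, while 4 of 5 oligodendrocyte markers fell in cWT_SOD1 and 4 of 5 were higher in cKO_SOD1 than in cWT_SOD1. Of all genes, 33.2% were called higher and 33.1% lower in cWT_SOD1, and 29.1% were higher in cKO_SOD1 than in cWT_SOD1. The part of any of these cell types in the changes of the members was not tested.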

How the data were processed

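Whole lumbar cord gave total RNA, from which poly-A RNA was selected for TruSeq libraries, per the labels' protocols. The submitters' processing notes name bcl2fastq 1.8.4, TopHat2 2.0.4, Cufflinks 2.0.2 and mm9, with no role for each. The authors deposited raw counts per gene symbol for 16 libraries, and FPKM values, named so per the file headers. No source used here names the counting tool or its use of strand.

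All 16 libraries were fitted together from the counts with edgeR 4.0.16 in R 4.3.3 (TMM, filterByExpr, 1 coefficient per group, quasi-likelihood F-test). Benjamini-Hochberg adjustment covered all 15426 genes tested, with a threshold of 0.05. An SE is the absolute log2 fold change over the square root of F. The procedure was first tested on simulated counts. There a small set of genes was changed in the cWT_SOD1 libraries alone, up and down in equal number, with the same spread in all groups. That does not check the scaling or the shared spread under changes as wide as those found. DESeq2 1.42.0, and limma 3.58.1 on log2(FPKM + 0.1) and log2(FPKM + 1), served as alternatives, besides other scaling, filters, a sex term, the replicate number as a block and each library left out. No 2 libraries of a group agreed within sampling noise, the mean chi-square per gene between them being 2.88 at the least. The cWT_SOD1 libraries differed most among themselves, from 6.93 (replicates 2 and 3) to 40.8 (replicates 1 and 3). In the other groups the highest value was 11.6 (cWT replicates 2 and 4). The fit shares 1 estimate of the spread over all groups. Intervals on the Oas3 ratios cover counting error at the 95% level.

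Members were grouped by role. Within each role group the up to 3 members with the smallest p between cKO_SOD1 and cWT_SOD1, and Adar and Cmpk2, were given per library. Of pathway genes outside the set, up to 2 per list with the smallest p for the transgene effect in cWT were named. The members, role groups and lists were chosen with earlier results of these data known. 1 gene of the pathway lists is not reported here.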

Additional observations from a re-analysis of the deposited data

Results flagged for a closer look

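In 18 of 180 groups of 4 libraries, the highest or lowest library lay far from the other 3 by Dixon's criterion at the 95% level, which chance alone gives in about 1 of 20. In 4 of the 18 the library was cKO_SOD1 replicate 3, highest of its group for Ifih1 (14.1 CPM against 10.7 for the next library), Ifit3 (37.96 against 21.99), Parp9 (11.1 against 8.14) and Rtp4 (7.64 against 4.97). Xaf1 had such a library in 3 groups, at 10.8 CPM in cWT replicate 2 (next 5.99), 27.3 in cKO replicate 4 (next 7.32) and 53.2 in cWT_SOD1 replicate 2 (next 16.2). In cKO replicate 4, Parp9 (6.29 CPM) and Sp100 (5.22) were also high. The other high values were Herc6 at 37.7 CPM in cWT_SOD1 replicate 3, Oas2 at 0.922 and Slfn8 at 3.38 in cWT replicate 1, and Rtp4 at 2.99 in cKO replicate 3. The low values were Stat2 at 26.6 CPM in cWT_SOD1 replicate 2, Ifit1 at 4.11 in cWT replicate 2, Samhd1 at 19.6 in cWT replicate 4, Cmpk2 at 40.01 in cKO_SOD1 replicate 2 and Oas3 at 0 in cKO replicate 1. The Oas3 flag rests on 0 counts against 1 in each other cKO library, so the rate of 1 in 20 does not apply to it. What sets the flagged libraries apart was not tested.

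The transgene effect differed between the genotypes for 33 members by the interaction of the edgeR fit at an adjusted p under 0.05. On the log2 scale it was below −2 for Lgals3bp (−2.51), Xaf1 (−2.19) and Slfn2 (−2.15). The next were Gbp2 (−1.61), Psmb8 (−1.58), Nlrc5 (−1.53), Bst2 (−1.50), Ifitm3 (−1.38), Psmb9 (−1.31), Slfn8 (−1.29), Herc6 (−1.22), Parp14 (−1.20), Ifi44 (−1.13), Parp9 (−1.12), Dhx58 (−1.12), Oas2 (−1.03), Ifi35 (−1.003) and Gbp3 (−1.002). Smaller values were found for Trim25 (−0.91), Oasl2 (−0.89), Rsad2 (−0.88), Trim21 (−0.77), Irf1 (−0.77), Ifit2 (−0.75), Irf9 (−0.75), Ifih1 (−0.68), Samhd1 (−0.61), Ddx58 (−0.55), Dtx3l (−0.52), Eif2ak2 (−0.50) and Tap2 (−0.34). The sign was opposite for Cmpk2 (0.60) and Adar (0.54).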

How the results depend on the processing

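The number of called members stayed within 1.5 times its value in every alternative run. It was 44 to 45 for the transgene effect in cWT (44 as reported), 22 to 33 for that effect in cKO (29), 0 throughout for cKO against cWT without the transgene, 38 to 42 for cKO_SOD1 against cWT_SOD1 (40), and 28 to 41 for the interaction (33). The lowest count in cKO came without cKO replicate 2, and the highest for the interaction without cKO_SOD1 replicate 3. Leaving out 1 library at a time gave these same ranges of member counts. With the replicate number as a block the counts were 44, 31, 0, 41 and 32 in the same order. The share of all genes called over the alternative runs was 52% to 68% in cWT, 4.41% to 16.5% in cKO and 0.0129% to 0.11% without the transgene. It was 45.2% to 60.1% for cKO_SOD1 against cWT_SOD1 and 33.5% to 49.3% for the interaction. The 16.5% in cKO came from a fit of only the 8 libraries compared, against 7.28% as reported. Same-numbered libraries of different groups deviated together in 11 of 24 pairs (correlation over 0.1, range −0.25 to 0.31). Some of these pairs were of the same sex and others were not, and differently numbered libraries were not compared. The correlations can therefore neither show nor reject a pairing of animals, and the main fit takes none. Of 4609 recomputed values of single members, 4605 kept their direction and 4464 their call. The 4 that turned were the Xaf1 effect of the transgene in cKO without cKO replicate 4, at 0.40, and the Ifit3 interaction at 0.03 without cWT replicate 2, 0.07 without cKO replicate 4 and 0.0853 without cWT_SOD1 replicate 1. Over the libraries left out in turn these values ran from −0.57 to 0.40 for Xaf1 and from −0.40 to 0.0853 for Ifit3, none of them called. The cause was not tested. In the fit with no filter on low counts Oas3 rose by 3.70 in cWT (adjusted p = 0.000142) and 3.21 in cKO (adjusted p = 0.0207), while cKO_SOD1 against cWT_SOD1 (−0.91, adjusted p = 0.135) and the interaction (−0.49, adjusted p = 0.901) were not called. Few counts limit Oas3, Mx1, Zbp1 and Oasl1 most.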
